A study of Mus musculus with 6 samples.

Results

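The genes described here are those of the class II antigen presentation module in cultured lung ILC2s: Cd74, which encodes the invariant chain, the class II chain genes H2-Aa, H2-Ab1 and H2-Eb1, the peptide loading genes H2-DMa and H2-DMb1, and the coactivator gene Ciita. They were chosen by name as columns of the gene count table, and all 7 were found among its 17831 genes. Group 2 innate lymphoid cells (ILC2s) are tissue lymphocytes without antigen receptors that release type 2 cytokines. Bulk RNA-seq was available for 3 libraries from WT mice (strain label CB57BL/6) and 3 from mice labelled SIRPalphatm1Ynliu/J, here called SIRPα KO, a germline targeted allele of Sirpa. All mice were given intranasal rmIL-33, 0.5 μg a day over 3 days, and lung ILC2s were sorted on day 4 as CD45+, lineage-, CD127+, ST2+ cells and kept in culture with the cytokines rmIL-7 and rmIL-2, for a time given both as 18 h and as 24 h. The study's mice were 6 to 8 weeks old. The comparison asks how the loss of SIRPα, an inhibitory receptor for CD47, relates to the RNA of IL-33-activated ILC2s.

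Class II molecules carry peptides from proteins taken up into endosomes to the cell surface, where CD4 T cells read them. Each is a pair of an α and a β chain, encoded for the mouse molecule I-A by H2-Aa and H2-Ab1, while H2-Eb1 encodes the β chain of I-E, whose α chain gene is defective in C57BL/6 mice. The invariant chain fills the peptide groove until it is cut away in the endosome, and H2-DM, made of the products of H2-DMa and H2-DMb1, then exchanges its last fragment for a peptide. B cells, dendritic cells and macrophages hold most class II, and ILC2s are known to carry lower amounts. Transcription of these genes runs through a shared promoter module, with an X box bound by the RFX complex and a Y box bound by NF-Y, to which the CIITA protein is recruited without binding DNA itself.

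Promoter sequences are shown for H2-Aa and H2-Eb1 because both boxes of the shared module can be read in them. Each line gives the 160 bases before the start of the gene in RefSeq's annotation of GRCm38.p6, 5′ to 3′ on the transcribed strand. Capitals mark matches to the letters searched on both strands, which were CTGATTGG and its core ATTGG for the Y box, and CAACNGATG and GCAAC for the X box.
H2-Aa, chr17:34287824-34287983, minus strand: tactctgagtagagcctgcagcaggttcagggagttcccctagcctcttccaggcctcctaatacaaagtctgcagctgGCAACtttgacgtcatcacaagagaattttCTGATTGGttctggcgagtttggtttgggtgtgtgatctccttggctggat
H2-Eb1, chr17:34305707-34305866, plus strand: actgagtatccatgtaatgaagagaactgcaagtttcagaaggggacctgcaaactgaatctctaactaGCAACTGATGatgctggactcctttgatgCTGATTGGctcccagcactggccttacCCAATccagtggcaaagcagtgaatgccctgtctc

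Counted backwards from the start, the Y box letters CTGATTGG lay at -51 to -44 in H2-Aa and at -62 to -55 in H2-Eb1, and the X box letters GCAAC at -81 to -77 and at -91 to -87. In H2-Eb1 the letters CAACNGATG overlapped GCAAC at -90 to -82, and the core ATTGG, which is part of CTGATTGG, occurred once more on the opposite strand at -35 to -31, printed as CCAAT. Among 32851 RefSeq promoters of 250 bases, CTGATTGG was present in 3.83%, ATTGG in 33.8%, CAACNGATG in 0.46% and GCAAC in 29.9%. In H2-DMb1, ATTGG alone of these was found, at -61 to -57. H2-DMa had entries for 2 starts, with GCAAC on the minus strand at -7 to -3 of the first and ATTGG at -198 to -194 of the second. The promoters of H2-Ab1, Ciita and Cd74 were not used here. A match is a description of the letters, not a measured binding site.

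The libraries held from 13980491 to 19051504 reads assigned to genes. Sirpa itself had 149, 96 and 73 reads in WT replicates 1, 2 and 3 and 48, 85 and 28 in the SIRPα KO replicates (log2 fold change -1.12, adjusted p = 0.115 by edgeR), so the targeted gene was lower but not absent in the libraries labelled SIRPα KO. WT replicate 3 stood apart, with correlations of 0.853 to 0.931 with the other 5 libraries in log2 CPM over the more abundant genes. WT replicates 1 and 2 share the code 37 in the labels and SIRPα KO replicates 2 and 3 the code 44. If libraries of 1 code come from 1 sample, p-values that count 3 replicates are too small, and nothing in the labels says that the replicates are separate mice. Fold changes followed transcript length, with a median log2 fold change of -0.56 in the decile of genes with the shortest transcripts and 0.49 in that with the longest. The 6 members other than Ciita have short transcripts of 1128 to 2005 bases, and that of Ciita has 6007 bases. The ILC2 markers Gata3, Il1rl1 and Il5 were at 945, 544 and 9180 CPM on average in WT, where CPM are counts scaled to a common library total after TMM normalization.

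All 7 members had a lower average in SIRPα KO than in WT, and 1 of them, Cd74, passed the threshold of an adjusted p under 0.05 by edgeR's quasi-likelihood test, where 5.81% of the 13623 genes tested passed it as lower. The median log2 fold change was -1.003 over the 7 members and -0.03 over all genes tested. Without WT replicate 3 it was -0.69 over the members and -0.01 over all genes tested. For 4 members (Cd74, H2-Ab1, H2-Eb1 and H2-DMa) the highest SIRPα KO library was below the lowest WT library, as for 21.2% of all genes tested. The same 4 had an unadjusted p under 0.05, which 15.8% of all genes reached in that direction. DESeq2 called these 4, where it called 12.0% of the genes to which it gave an adjusted p as lower. In bulk RNA, fewer cells of a type and less RNA per cell cannot be told apart.

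**Figure D1:**
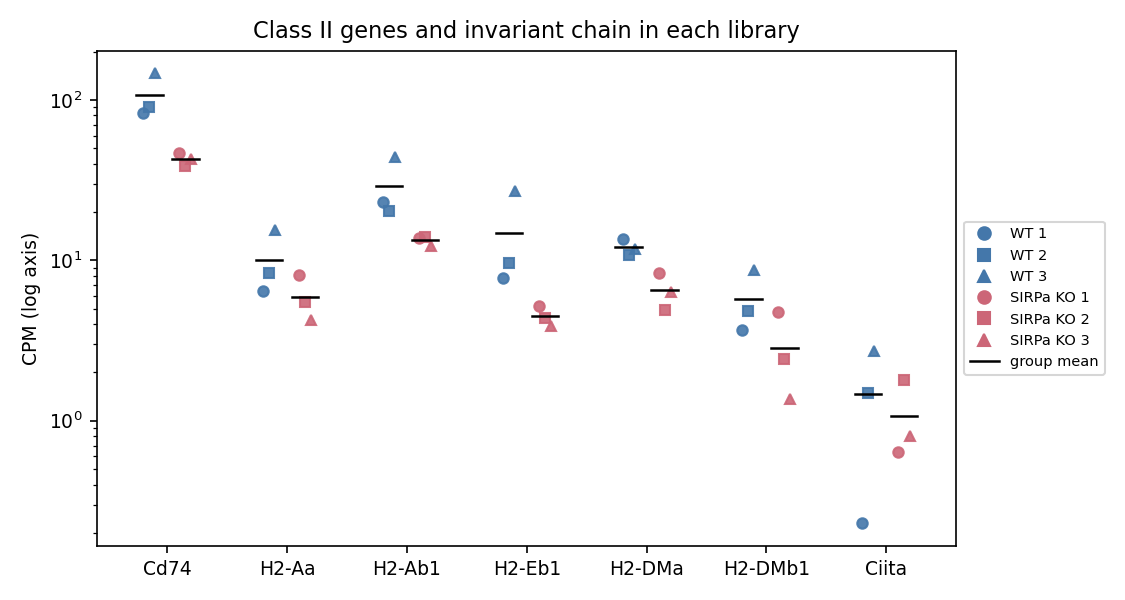
CPM of the 7 members on a log axis in each WT (blue) and SIRPα KO (red) library, with symbols for replicates 1 to 3 and a black line at the group mean. The 3 SIRPα KO libraries of Cd74 sit between 38.9 and 46.8 CPM, all below the WT libraries, whereas the groups overlap for H2-Aa, H2-DMb1 and Ciita, and WT replicate 3 is the highest library for every member except H2-DMa.

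Cd74 lies at chr18:60803848-60812652 (mm10, plus strand) and encodes the chaperone that all class II dimers bind. It had 1443, 1280 and 2219 reads in WT replicates 1, 2 and 3, or 82.9, 90.9 and 147 CPM. In SIRPα KO replicates 1, 2 and 3 it had 733, 742 and 687 reads, or 46.8, 38.9 and 42.6 CPM. The groups did not overlap, and the SIRPα KO libraries lay close together while WT replicate 3 was well above the other WT libraries. Cd74 fell from 107 ± 34.8 CPM (SD, n = 3) to 42.8 ± 3.96 CPM (SD, n = 3), to 40.0% of the WT level in the fit, with a log2 fold change of -1.32 (SE 0.23, adjusted p = 0.0178 by edgeR). Its log2 fold change was -0.86 (adjusted p = 0.0218 by edgeR) when the fit was corrected for the GC content and length of transcripts, here called the length and GC correction. Without WT replicate 3 it was -1.02 (adjusted p = 0.00398 by edgeR). The adjusted p was 0.101, 0.110 and 0.0913 without SIRPα KO replicate 1, 2 or 3, and 0.130 with libraries of 1 code summed (edgeR), so that the call for Cd74 needed all 3 SIRPα KO libraries as separate replicates.

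The 3 chain genes lie next to each other in the class II region of chromosome 17. H2-Ab1 (chr17:34257689-34269419, plus strand), the I-A β chain gene, had 400, 286 and 662 reads in the WT libraries, or 23.0, 20.3 and 43.8 CPM, and 217, 266 and 198 reads in the SIRPα KO libraries, or 13.9, 13.9 and 12.3 CPM. Again the groups did not overlap, and the SIRPα KO libraries differed little among themselves. Its mean was 13.4 ± 0.943 CPM (SD, n = 3) in SIRPα KO against 29.0 ± 12.8 CPM (SD, n = 3) in WT. Its log2 fold change of -1.12 (SE 0.30) did not pass the threshold (adjusted p = 0.0519 by edgeR). It was -0.69 without WT replicate 3, which passed it (adjusted p = 0.0299 by edgeR), and -0.54 with the length and GC correction, which did not (adjusted p = 0.155 by edgeR).

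H2-Eb1 (chr17:34305867-34316674, plus strand), the I-E β chain gene, had a log2 fold change larger in size than that of the other 6 members with all libraries, though not without WT replicate 3, and a wide spread in WT. Its reads were 136, 135 and 408 in WT, or 7.81, 9.59 and 27.0 CPM, and 81, 83 and 63 in SIRPα KO, or 5.17, 4.35 and 3.90 CPM. WT replicate 3 was far above the other WT libraries, and every SIRPα KO library was below the lowest WT library. The log2 fold change was -1.72 (SE 0.48, adjusted p = 0.0552 by edgeR), and without WT replicate 3 it was -0.95 (adjusted p = 0.0415 by edgeR). With the length and GC correction it was -1.48 (adjusted p = 0.0747 by edgeR).

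H2-Aa (chr17:34282744-34287823, minus strand), the I-A α chain gene, did not separate the groups. It had 112, 117 and 234 reads in WT, or 6.43, 8.31 and 15.5 CPM, and 126, 105 and 69 reads in SIRPα KO, or 8.04, 5.50 and 4.28 CPM. SIRPα KO replicate 1 was above WT replicate 1. Its log2 fold change of -0.76 (SE 0.40) did not pass the threshold (adjusted p = 0.227 by edgeR), and it was -0.30 without WT replicate 3. The reads of H2-Aa per read of H2-Ab1, its partner chain, were 0.280, 0.409 and 0.354 in WT and 0.581, 0.395 and 0.349 in SIRPα KO, so that the groups overlapped in this ratio too.

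Of the H2-DM pair, H2-DMa (chr17:34119541-34139101, plus strand), the α chain gene, separated the groups. It had 236, 152 and 178 reads in WT, or 13.6, 10.8 and 11.8 CPM, and 131, 94 and 103 reads in SIRPα KO, or 8.36, 4.93 and 6.38 CPM. Unlike the other 6 members, it was not highest in WT replicate 3. Its log2 fold change was -0.88 (SE 0.27, adjusted p = 0.0707 by edgeR), and -0.89 without WT replicate 3. Exons of H2-DMa overlap those of Brd2 on the opposite strand, and whether strand was used in counting is not stated, so reads there could not be assigned to 1 gene. Brd2 itself was at 277 and 275 CPM on average in WT and SIRPα KO.

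H2-DMb1 (chr17:34153072-34160230, plus strand), the β chain gene, had 64, 68 and 131 reads in WT, or 3.68, 4.83 and 8.66 CPM, and 75, 46 and 22 reads in SIRPα KO, or 4.79, 2.41 and 1.36 CPM. The groups overlapped through SIRPα KO replicate 1. Its log2 fold change was -1.003 (SE 0.54, adjusted p = 0.235 by edgeR). It was -0.57 without WT replicate 3 and -1.58 without SIRPα KO replicate 1, and passed the threshold in neither fit (adjusted p = 0.496 and 0.188 by edgeR). Its transcript is 95.7% identical over 77.0% of its length to that of H2-DMb2, so the split of reads between these copies is uncertain. H2-DMb2 had at most 9 reads in any library.

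Ciita (chr16:10480059-10528418, plus strand), the coactivator gene of the module, was the lowest member. It had 4, 21 and 41 reads in WT, or 0.230, 1.49 and 2.71 CPM, and 10, 34 and 13 reads in SIRPα KO, or 0.638, 1.78 and 0.805 CPM. The groups overlapped widely, and a difference in Ciita was not detectable with these libraries. The log2 fold change was -0.44 (SE 0.85, adjusted p = 0.751 by edgeR), and it was 0.35 without WT replicate 3. DESeq2 gave Ciita no adjusted p. Exons of Ciita overlap those of Dexi on the opposite strand, with the same limit as for H2-DMa.

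**Figure D2:**
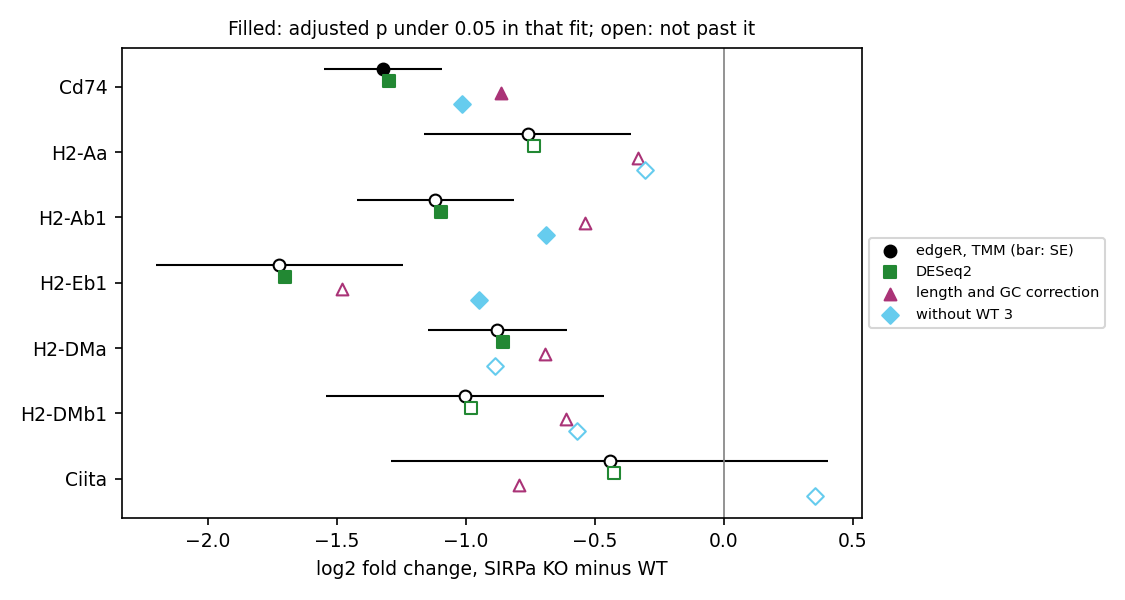
Log2 fold change (SIRPα KO minus WT) of each member under edgeR with TMM scaling (black circles, bars show the SE), DESeq2 (green squares), the length and GC correction (purple triangles) and without WT replicate 3 (light blue diamonds), filled where the adjusted p was under 0.05. Cd74 is filled under all 4, H2-Ab1 and H2-Eb1 only under DESeq2 and without WT replicate 3, H2-DMa only under DESeq2, and Ciita without WT replicate 3 is the single point to the right of 0.

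Levels per kilobase of transcript put the members in nearly the same order in both groups. In WT, Cd74 was at 75.8 ± 24.7 CPM per kb (SD, n = 3), H2-Ab1 at 23.9 ± 10.6, H2-Aa at 8.93 ± 4.23, H2-Eb1 at 8.86 ± 6.35, H2-DMa at 6.00 ± 0.698, H2-DMb1 at 4.08 ± 1.86 and Ciita at 0.246 ± 0.207. The WT libraries of Cd74 lay above all those of H2-Ab1, those of H2-Ab1 above all those of H2-Aa, and those of H2-DMb1 above all those of Ciita. H2-Aa, H2-Eb1, H2-DMa and H2-DMb1 overlapped each with its neighbour in the order. In SIRPα KO, H2-DMa (3.27 ± 0.861 CPM per kb, SD, n = 3) came before H2-Eb1 (2.68 ± 0.386), and their libraries overlapped. By CPM, Cd74 in WT was above 83.8% of the tested genes and Ciita above 11.7%. Cd74 had 3.61, 4.48 and 3.35 reads per read of H2-Ab1 in WT and 3.38, 2.79 and 3.47 in SIRPα KO, so the groups overlapped in the proportion of invariant chain to I-A β chain reads.

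Over the 6 libraries, the log2 CPM of Cd74 had a Pearson r of 0.96 with both H2-Ab1 and H2-Eb1, 0.84 with H2-DMa, 0.83 with H2-Aa, 0.80 with H2-DMb1 and 0.27 with Ciita, as a description over points that share library and depth. The mean standardised level of the members was highest in WT replicate 3 (1.44 SD) and lowest in SIRPα KO replicate 3 (-0.93 SD). Of 9141 other genes that reached an average of 3 on the log2 CPM scale, the closest to this pattern was Mpv17l2 (r = 0.997 over 6 libraries), followed by Pgk1 (0.995), Chst12 (0.994), Hilpda (0.994) and BC029722 (0.993). As many as 295 of these genes had an r above 0.95, so the pattern over the libraries was not peculiar to class II genes.

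Of the other genes of the pathway, 29 of 34 listed were tested, and 2 were called lower and 1 higher in SIRPα KO, where 5.81% of all tested genes were called lower and 5.94% higher. Their median log2 fold change was -0.11. Among further class II chains and chaperones, H2-Oa and H2-Ob encode H2-DO, an inhibitor of H2-DM known mainly from B cells. H2-Oa had 147, 127 and 188 reads in WT and 86, 108 and 73 in SIRPα KO (log2 fold change -0.93, SE 0.27, adjusted p = 0.0613 by edgeR), with no overlap between the groups in CPM. Its log2 fold change was -0.37 with the length and GC correction. H2-Ob had 23, 1 and 29 reads in WT and 0, 0 and 4 in SIRPα KO and did not pass the filter on low counts. H2-Eb2 and H2-Ea-ps were not among the genes analysed here.

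The regulators of class II transcription moved in both directions. Of 17 tested, 1 was called lower, 1 higher, and 15 did not pass the threshold. Prdm1, which encodes Blimp-1, a repressor of Ciita in plasma cells, rose from 18.2 ± 4.73 to 40.0 ± 4.40 CPM (SD, n = 3 each; log2 fold change 1.14, adjusted p = 0.0252 by edgeR). Socs1, which encodes an inhibitor of interferon-γ signalling, fell from 459 ± 106 to 285 ± 16.3 CPM (SD, n = 3 each; log2 fold change -0.69, adjusted p = 0.0367 by edgeR). With the length and GC correction Prdm1 kept its call with a log2 fold change of 0.72 (adjusted p = 0.0332 by edgeR), and Socs1 lost it with a log2 fold change of -0.58 (adjusted p = 0.0827 by edgeR). The RFX subunit genes had log2 fold changes of 0.65 for Rfx5, -0.46 for Rfxap and 0.01 for Rfxank, with adjusted p-values of 0.128, 0.0945 and 0.982 by edgeR. The interferon regulatory factor gene Irf1 had a log2 fold change of -0.13 (adjusted p = 0.595 by edgeR).

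Of the genes for endosomal processing and class II turnover, 11 were tested and 1 was called, as lower, where 5.81% of all genes tested were called lower. Cd83, whose product keeps class II and CD86 at the surface by opposing the ubiquitin ligase MARCH1, fell from 15.2 ± 2.99 to 4.59 ± 1.12 CPM (SD, n = 3 each), with a log2 fold change of -1.73 (SE 0.28, adjusted p = 0.0154 by edgeR). The length and GC correction left it at -1.75 (adjusted p = 0.0134 by edgeR). Ctss and Ctsl, the cathepsin genes whose products cut the invariant chain, had log2 fold changes of -0.19 and 0.68 (adjusted p = 0.634 and 0.105 by edgeR). Like that of Cd74, the calls for Prdm1, Socs1 and Cd83 were lost without any 1 of the SIRPα KO libraries and with libraries of 1 code summed. In these fits 0 of the pathway genes and 10 to 17 of all genes passed the threshold by edgeR, against 1600 with 6 separate libraries. An unadjusted p under 0.05 by edgeR was reached by 5 to 8 of the pathway genes, and by 2935 to 3359 of the 14141 to 14581 genes tested. DESeq2 was not run on these subsets. On all 6 libraries DESeq2 called 8 of the pathway genes, where it called 3214 of the 11944 genes to which it gave an adjusted p. Of the 5 tested genes of the class II region with other functions, all had negative log2 fold changes and 1, the immunoproteasome gene Psmb8, was called (log2 fold change -0.60, adjusted p = 0.0380 by edgeR). It lost the call with the length and GC correction (log2 fold change -0.26, adjusted p = 0.10 by edgeR). Over all 13623 genes tested, 7030 had negative log2 fold changes and 5.81% were called lower.

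**Figure D3:**
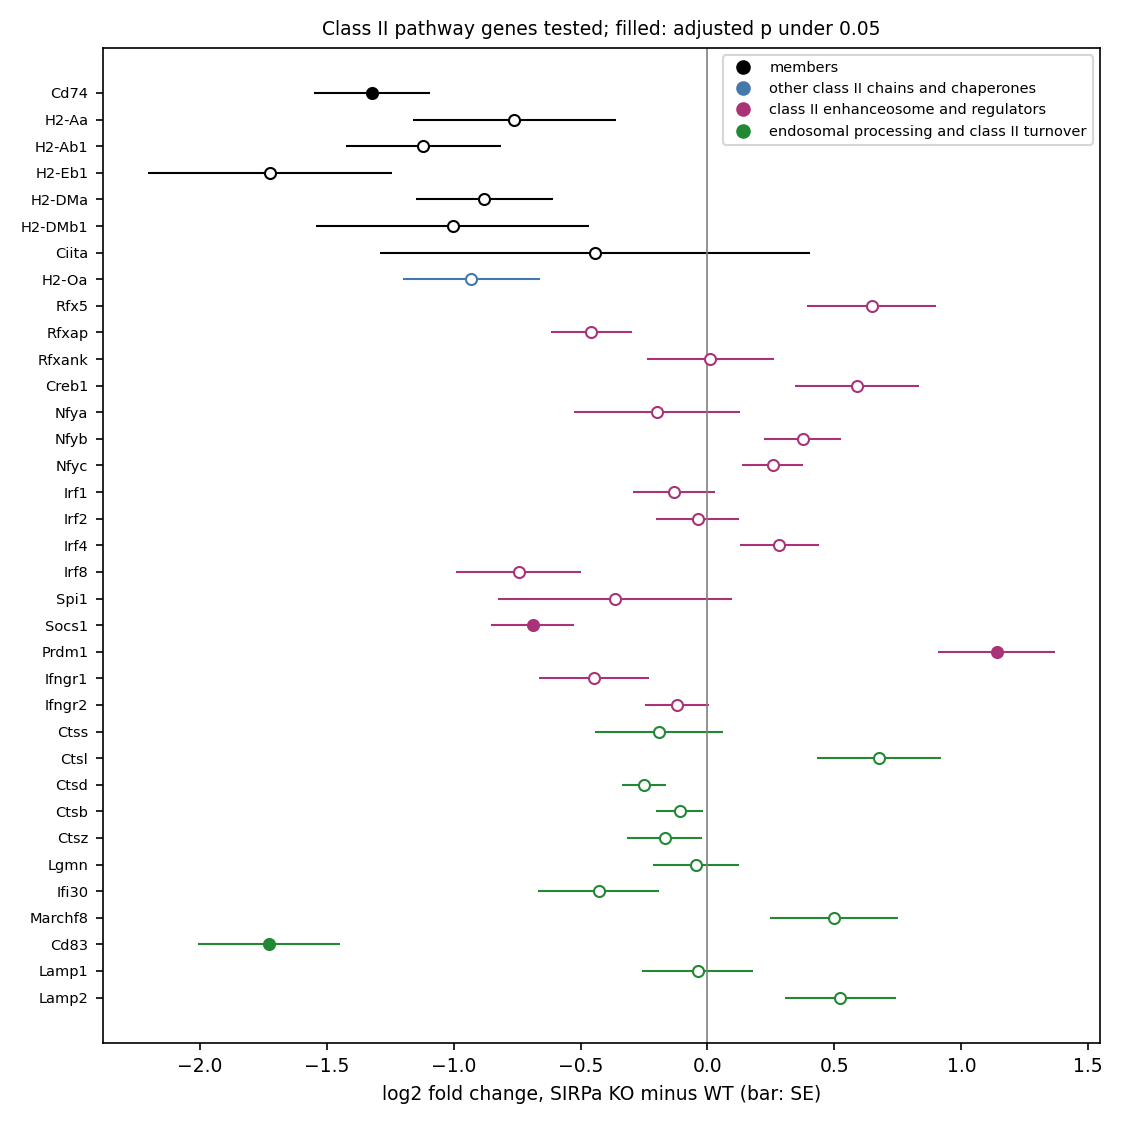
Log2 fold change (SIRPα KO minus WT, bars show the SE) of the 7 members and 28 other pathway genes tested, coloured by list and filled where edgeR's adjusted p was under 0.05. The members all lie left of 0, the regulators lie on both sides, and Cd74, Socs1 and Cd83 on the left and Prdm1 on the right are filled.

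Markers of B cells, which hold abundant class II, moved with the members. Of 15 listed B cell markers 12 were in the table, 8 were tested, all 8 had negative log2 fold changes and 5 were called lower. Over all 13623 genes tested, 7030 had negative log2 fold changes and 5.81% were called lower. Cd79a, a subunit of the B cell receptor, had 69, 49 and 126 reads in WT and 6, 3 and 8 in SIRPα KO (log2 fold change -3.92, SE 0.61, adjusted p = 0.0144 by edgeR). Ms4a1, which encodes CD20, had 22, 11 and 30 reads in WT and 6, 11 and 0 in SIRPα KO and was not called. Pax5 was not among the genes analysed here. B cells were gated out by B220 in the lineage cocktail of the sort.

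The B cell markers did not move together among themselves. Cd79b, the partner of Cd79a, fell less, from 24.2 ± 0.732 to 13.8 ± 0.678 CPM (SD, n = 3 each; log2 fold change -0.82, adjusted p = 0.0257 by edgeR), and lost its call with the length and GC correction (adjusted p = 0.127 by edgeR). The immunoglobulin genes Ighm and Igkc were called lower (log2 fold changes -2.66 and -3.29, adjusted p = 0.0487 and 0.0420 by edgeR) and were not called with the length and GC correction, where their log2 fold changes were -2.50 and -2.85 (adjusted p = 0.0713 and 0.0802 by edgeR). Igkc had 3081, 2243 and 1108 reads in WT and 17, 414 and 303 in SIRPα KO. Summed over Ighm, Ighd, Igkc and Jchain, the level ranged from 187 to 462 CPM in WT, where replicate 3 was the lowest, and from 7.41 to 73.3 CPM in SIRPα KO, where replicate 1 was the lowest. The remaining 7 markers without Cd79b ranged from 9.19 to 19.7 CPM in WT, where replicate 3 was the highest, and from 0.805 to 3.09 CPM in SIRPα KO.

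Set against Cd79a, Cd74 and H2-Ab1 did not keep 1 proportion over the groups, and for Cd74 this depended on the B cell marker used. Cd74 had 20.9, 26.1 and 17.6 reads per Cd79a read in WT, and 122, 247 and 85.9 in SIRPα KO, with exact 95% intervals from counting error of 55.9 to 334 and 43.3 to 199.7 in SIRPα KO replicates 1 and 3 and of 84.3 to 1202 in replicate 2, where Cd79a had 3 reads. The highest of the WT intervals ended at 35.5, below each SIRPα KO interval. These intervals treat reads as independent draws within 1 library, though the libraries were amplified. They do not measure the spread between libraries and are no test between the groups. H2-Ab1 had 5.80, 5.84 and 5.25 reads per Cd79a read in WT and 36.2, 88.7 and 24.8 in SIRPα KO. Within WT the libraries ranked alike by the reads of Cd79a, H2-Ab1 and Cd74. In SIRPα KO, where Cd79a had 6, 3 and 8 reads, H2-Ab1 had 217, 266 and 198 and Cd74 had 733, 742 and 687. Cd74 had 0.468, 0.571 and 2.003 reads per Igkc read in WT and 43.1, 1.79 and 2.27 in SIRPα KO. The groups overlapped in this ratio, since SIRPα KO replicate 2 was below WT replicate 3. SIRPα KO replicate 1 had the lowest Igkc level of all libraries and the highest Cd74 level of its group. What share of the members' reads came from B cell RNA, and the part of the B cell markers in the difference between the groups, was not tested.

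Macrophage markers did not fall with the members. Of 15 listed, 11 were tested, 8 had positive and 3 negative log2 fold changes, and 1, the integrin gene Itgam, was called, as higher in SIRPα KO (log2 fold change 2.55, adjusted p = 0.0454 by edgeR). Over all genes tested, 5.94% were called higher. The call for Itgam was lost with the length and GC correction (log2 fold change 2.23, adjusted p = 0.0682 by edgeR), without WT replicate 1 or 3 (adjusted p = 0.0514 and 0.0673 by edgeR) and without any 1 of the SIRPα KO libraries (adjusted p from 0.145 to 0.154 by edgeR). Without 1 SIRPα KO library, 16 or 17 of all genes passed the threshold by edgeR, against 1600 with all 6 libraries. Itgam had 8, 56 and 20 reads in WT and 146, 207 and 214 in SIRPα KO. C1qa, C1qb, C1qc and Fcgr1, which mark tissue macrophages, were listed at 0 in all 3 WT libraries, and the 3 C1q genes together had 24, 16 and 13 reads in SIRPα KO. Marco had 0, 0 and 98 reads in WT and 18, 12 and 9 in SIRPα KO. Csf1r, the receptor gene on which macrophages depend, had 113, 61 and 49 reads in WT and 123, 185 and 102 in SIRPα KO. Adgre1, which encodes F4/80, had 74, 15 and 113 reads in WT and 25, 158 and 96 in SIRPα KO, and the averages of Mertk were 1.57 ± 1.87 CPM and 1.64 ± 0.629 CPM (SD, n = 3 each). Within WT, Marco, Adgre1, Mertk, Cd68 and Lyz2 were highest in replicate 3, as most members were, whereas Csf1r and Cd14 were lowest there. Without Chil3 and Lyz2, which were the most abundant of the list, the summed level was 25.7 to 58.6 CPM in WT, highest in replicate 3, and 43.4 to 54.2 CPM in SIRPα KO. CD11b, the product of Itgam, was also part of the lineage cocktail.

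Dendritic cell markers were few. Of 9 listed, 6 were in the table and 3 were tested, none of them called by edgeR or DESeq2, with 0 at an unadjusted p under 0.05 by edgeR. Flt3 was listed at 0 in all WT libraries, Zbtb46 averaged 1.76 ± 0.955 CPM in WT against 1.03 ± 0.618 CPM in SIRPα KO, and Itgax 4.46 ± 4.09 and 7.38 ± 2.73 CPM (SD, n = 3 each). The summed level was 47.1 to 60.9 CPM over the WT libraries, against 47.2 to 55.9 CPM over the SIRPα KO libraries. Most of it was Xcr1, and the rest came to 4.69 to 10.5 CPM and 6.44 to 11.2 CPM, respectively.

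Other lineages were low, though 2 of their genes were also lower in SIRPα KO. Alveolar epithelial markers summed to 10.7 to 21.3 CPM in the WT and 5.87 to 7.55 CPM in the SIRPα KO libraries, mostly through Epcam, which was called lower (log2 fold change -1.18, adjusted p = 0.0354 by edgeR). Within WT, Epcam was at 17.3, 13.1 and 9.72 CPM, lowest in replicate 3, where most members were highest. Epcam lost its call with the length and GC correction (log2 fold change -1.08, adjusted p = 0.0514 by edgeR), without WT replicate 1 (adjusted p = 0.0692 by edgeR) and without any 1 of the SIRPα KO libraries (adjusted p from 0.136 to 0.151 by edgeR). Sftpc had 11 reads in WT replicate 1 and was listed at 0 in the other 5 libraries. T cell markers summed to 18.5 to 23.4 CPM and 4.77 to 5.55 CPM, mostly through Cd3g (log2 fold change -2.45, adjusted p = 0.00375 by edgeR), whereas Cd3e was at 1.36 ± 1.01 and 1.09 ± 0.501 CPM (SD, n = 3 each). The calls for Cd3g, Cd79a, Cd79b, Ighm and Igkc were also lost without any 1 of the SIRPα KO libraries, with adjusted p from 0.0505 to 0.0571 by edgeR for Cd3g and from 0.0775 to 0.10 for Cd79a. The 13 ILC2 markers together ranged from 15080 to 16240 CPM over the WT libraries, against 20910 to 21490 CPM over the SIRPα KO libraries. Il5, Il2ra and Ptprc were called higher and Id2 and Thy1 lower, where 5.94% of all genes tested were called higher and 5.81% lower. Most of the summed level was Il5 (9180 CPM on average in WT, 12940 in SIRPα KO) and Il2ra (1839 and 3447 CPM), while Gata3 and Rora had log2 fold changes of 0.10 for each (adjusted p = 0.566 and 0.612 by edgeR). Ptprc lost its call with the length and GC correction (log2 fold change 0.44, adjusted p = 0.0653 by edgeR) and without WT replicate 1 (adjusted p = 0.0742 by edgeR), and all 5 calls were lost without any 1 of the SIRPα KO libraries. In the fits without 1 SIRPα KO library, 16 or 17 of all genes passed the threshold by edgeR, against 1600 with all 6 libraries. The part of these markers in the members' difference was not tested.

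**Figure D4:**
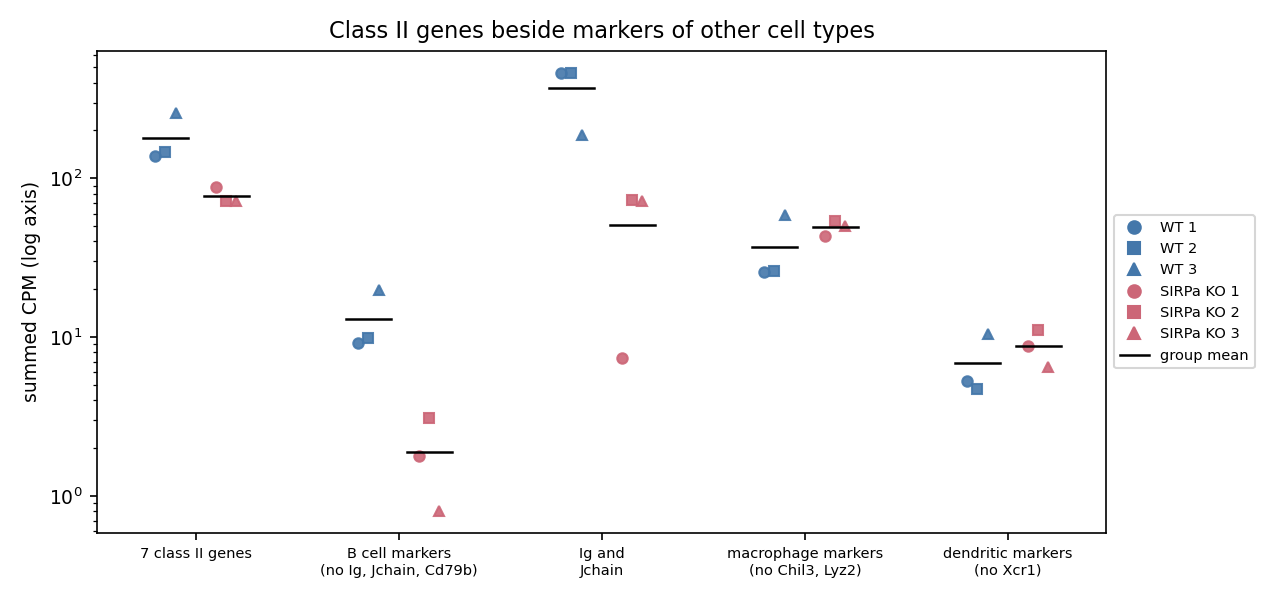
Summed CPM on a log axis per WT (blue) and SIRPα KO (red) library for the 7 class II genes and for 4 sets of markers of other cell types, with a black line at each group mean. The class II genes and both B cell sets are lower in every SIRPα KO library than in every WT library, while the macrophage set (WT 25.7 to 58.6 CPM, SIRPα KO 43.4 to 54.2 CPM) drawn without Chil3 and Lyz2 and the dendritic set drawn without Xcr1 overlap, and WT replicate 3 is the highest WT library in each set drawn except the immunoglobulin and J chain genes.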

How the data were processed

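Bulk RNA-seq of sorted and cultured lung ILC2s was deposited by the authors in the form of estimated counts (expected counts) per gene for 3 WT and 3 SIRPα KO libraries, made from 10 pg of RNA with an amplifying kit. The authors aligned the reads with STAR to mm10 and GENCODE M21 in Partek, and the submitters' processing notes give Partek 10.0 and STAR 2.7.8, while the methods name older versions of both. Of the values, 57.3% to 61.3% per library were whole numbers (tolerance 1e-06), and all were rounded. Of the gene columns, 17728 are not listed singly in the record of columns.

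Genes that passed filterByExpr, whose minimum is 10 reads for the median library and 15 over all, were scaled by TMM and tested on genotype with edgeR 4.0.16 (R 4.3.3), with Benjamini-Hochberg adjustment over all 13623. DESeq2 1.42.0 was an alternative. The length and GC correction is a spline offset per library, with 5 degrees of freedom, fitted on 8942 genes. Copies were sought with BLAST+ 2.17.0 at 95% identity. The fits were tested on simulated data. Named were all members, the pathway genes called and examples in list order, and the defining or most abundant markers. Members and lists were chosen with earlier results of these data known. Symbols matched GENCODE M21 directly for 17400 genes, 218 matched through synonyms and 213 did not. Promoters were matched by symbol in RefSeq's GRCm38.p6 tables. With 3 against 3, an exact permutation test cannot go below 0.1 and was not used. Results for some genes of the lists are not reported here, though the counts and sums over lists include them.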

Additional observations from a re-analysis of the deposited data

How the results depend on the processing

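All 7 members kept a negative log2 fold change under every alternative except Ciita, which ranged from -1.01 to 0.35 when 1 library was left out and was positive without WT replicate 3 (adjusted p = 0.822 by edgeR). Creb1 went from 0.59 to -0.002 (adjusted p = 0.995 by edgeR) with the length and GC correction. The number of members past the threshold was 1, and it was 4 with DESeq2, 3 with upper quartile scaling, 2 with a filter of at least 1 CPM in 3 libraries, 2 after thinning to the smallest library and 4 at an adjusted p under 0.1. It was 0 with libraries of one code summed, and 0 to 3 when 1 library was left out. With libraries of one code summed, 3 members had an unadjusted p under 0.05 as lower by edgeR, as did 1570 of the 14581 genes tested. Among the fits with 1 library left out, the 0 came without any 1 of the SIRPα KO libraries. There 4 or 5 members had an unadjusted p under 0.05 as lower by edgeR, as did 1397 to 1541 of the 14141 to 14242 genes tested. DESeq2 was not run on such subsets. For the other pathway genes the number was 3, and it was 8 with DESeq2, 7 at an adjusted p under 0.1, 0 with libraries of one code summed and 0 to 8 when 1 library was left out. For all genes it was 1600, and it was 3214 with DESeq2, 3054 at an adjusted p under 0.1, 10 with libraries of one code summed and 16 to 2606 when 1 library was left out. It was 16 or 17 without any 1 of the SIRPα KO libraries. Whether the replicate numbers pair the libraries is not known from the labels. Same-numbered libraries had correlations of -0.14, 0.19 and 0.05 in their deviations, within the range of -0.28 to 0.22 over all pairs. With 3 libraries a group these values cannot settle it. With the replicate block the numbers were 1 member, 3 other pathway genes and 1118 of all genes. With the length and GC correction together with the replicate block, they were 0, 1 and 369. The causes of these shifts were not tested. Upper quartile scaling moved the median log2 fold change of all genes to -0.13 and that of the members to -1.13. The members' median was -0.69 both with the length and GC correction and without WT replicate 3. The median of all genes was then -0.02 and -0.01, respectively. Ciita had the fewest reads of the members, with 4 to 41 per library, and the largest SE (0.85). The alternatives for the log2 fold changes of single genes that are not members were chosen after seeing the data.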
